A study of Rattus norvegicus with 6 samples.

Results

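The aminoacyl-tRNA synthetases of rat mandibular condylar chondrocytes were followed across 2 ways of growing the cells. The genes were chosen by name: a letter for the amino acid followed by "ars", with or without a final digit, together with Farsa and Farsb, the subunits of the cytosolic phenylalanine enzyme. This took 34 of the 17954 genes listed. Names ending in 2 were counted as mitochondrial (15 genes) and the others as cytosolic (19 genes), and the 34 cover 19 amino acids. There were 3 libraries from chondrocytes of the mandibular condyle grown as a flat (2D) layer in DMEM with 20% fetal bovine serum and antibiotics. The other 3 libraries came from condylar cartilage organoids kept in a chondrogenic medium whose make-up the labels do not state. Format and medium changed together, so their parts cannot be told apart. The labels do not say whether replicates came from separate animals or cultures, so the p-values measure the spread between these libraries, which may be technical. The cells' strain, sex, age and passage are not stated either.

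Each synthetase joins an amino acid to its matching tRNA, and the charged tRNA then delivers that amino acid to the ribosome. The cytosol and the mitochondrion keep largely separate sets, both encoded in the nucleus: the cytosolic enzymes serve the ribosomes that make most cell proteins, and the mitochondrial ones serve the ribosomes that make a few subunits of the respiratory chain. Some genes serve both places, and the products of the genes listed as Gars and Kars are well-known cases, so the split by name is not a clean split by place. In chondrocytes the cytosolic set supports the secretion of an extracellular matrix rich in collagen and proteoglycan. Many cytosolic synthetase genes are also known targets of ATF4, the transcription factor that responds to shortage of amino acids.

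The libraries held 18592574 to 26472447 estimated reads. The 10 most abundant genes took 11.5% to 12.5% of the reads in 2D culture and 36.8% to 43.2% in organoids. Markers counted as higher or lower passed the test described below, which called 14.9% of all genes tested higher in organoids and 12.6% lower. Of 8 chondrocyte markers, 7 were higher in organoids, with a summed level of 1498 to 1600.3 CPM in 2D culture and 11476 to 99384 CPM in organoids. CPM is the number of reads per 1000000 after TMM scaling, which sets each library's effective size from the bulk of its genes. Col2a1, the main collagen of cartilage, stood at 2.91 to 4.89 CPM in the 2D libraries, although these are labelled chondrocyte. All 7 osteoblast markers were higher in organoids as well. Of 7 fibroblast and perivascular markers 3 were lower and 2 higher (summed level 2121 to 2211 CPM in 2D culture and 935 to 2844 CPM in organoids). Acta2, Thy1 and Mcam fell from 128, 1409.6 and 17.3 CPM to 1.10, 228 and 1.83 CPM, and Cspg4 and Postn rose from 194 and 241 CPM to 749 and 850.4 CPM. Of 3 osteoclast markers tested 1 was higher, Acp5, at 4.02 ± 0.424 against 45.6 ± 46.3 CPM. The part of these cell types in the synthetase results was not tested. The 6 endothelial markers summed to at most 3.83 CPM in any library. The 6 macrophage and leukocyte markers summed to at most 0.773 CPM in 2D culture. Their sum was 34.0, 17.9 and 0.284 CPM in organoids 1, 2 and 3. Csf1r made up most of it in organoids 1 and 2, at 32.4 and 16.7 CPM. Organoid libraries differed more among themselves than 2D libraries did, with rank correlations of 0.847 to 0.913 against 0.992 to 0.994.

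Cytosolic genes, led by the tryptophan, arginine and asparagine enzymes, made up all the synthetases that passed the test, and each of them was lower in organoids. A gene was called when its adjusted p from the edgeR quasi-likelihood test, corrected over the 13052 genes tested, was under 0.05. All 34 synthetases passed the filter on low counts. Of the 19 cytosolic genes 9 were called lower (47.4%) and 0 higher, and all 19 fitted changes were negative. Of the 15 mitochondrial genes 0 were called, with 11 negative and 4 positive changes. Over all genes tested, 27.5% were called, 12.6% lower and 14.9% higher. The 9 calls among the 34 make 26.5%, near the share of genes called in either direction. The median log2 fold change (organoid over 2D culture) was -0.93 for the cytosolic genes, from -1.68 to -0.06. It was -0.12 for the mitochondrial genes, from -1.36 to 0.67, and -0.03 over all genes tested. The difference between the compartments was described by these counts and medians and was not tested. Leaving out any single 2D library left 1 synthetase called, Wars1, while the share of all genes called lower was 2.98%, 3.27% and 3.03% without 2D library 1, 2 and 3. Without organoid 3 the number called lower was 14, without organoid 2 it was 10, and without organoid 1 it was 7, while 17.3%, 19.2% and 17.1% of all genes were called lower in these fits.

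**Figure D1:**
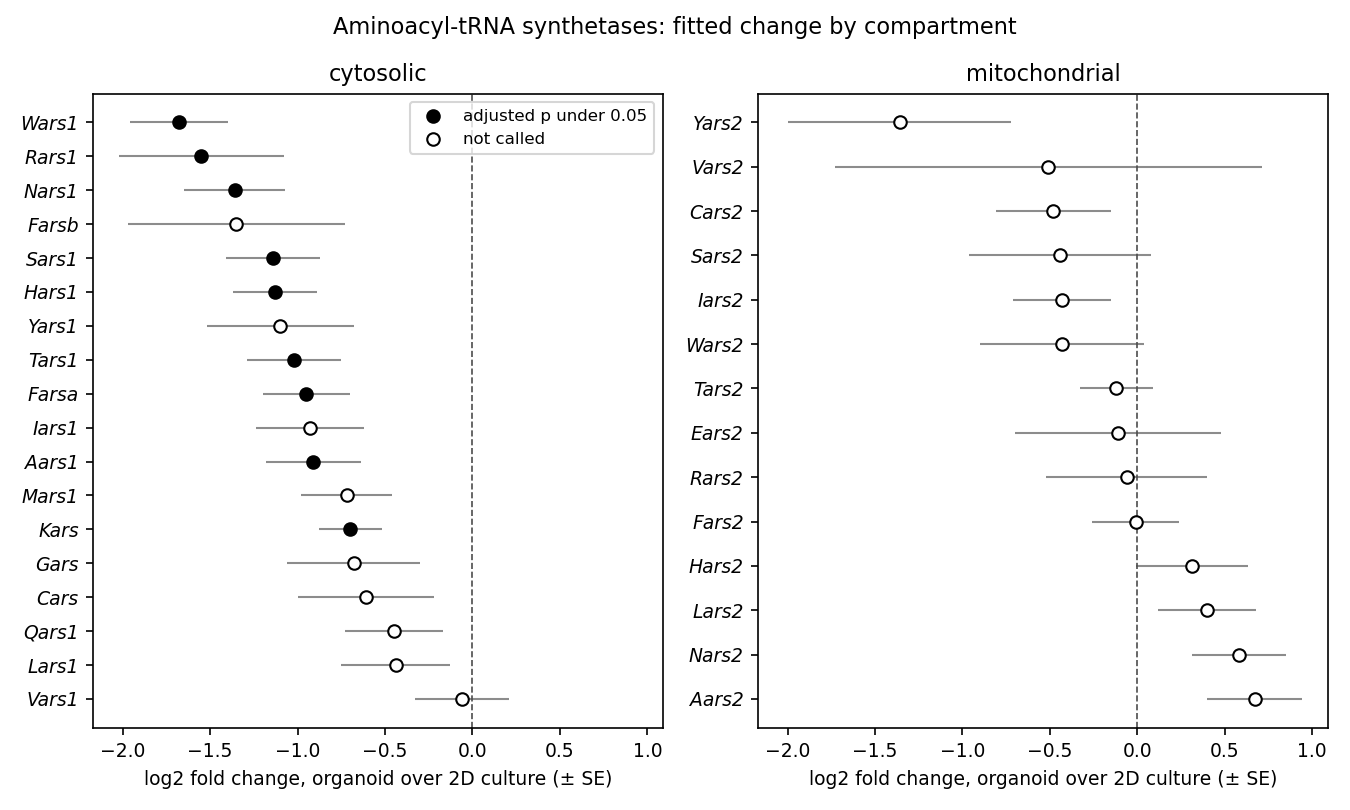
Fitted log2 fold change of synthetase genes (horizontal axis, organoid over 2D culture, bars ± SE, n = 3 libraries per group), cytosolic genes on the left and mitochondrial genes on the right. Filled circles mark the 9 genes with an adjusted p under 0.05, which are all cytosolic and lie between -1.68 and -0.70, and the mitochondrial genes lie on either side of 0.

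At an unadjusted p under 0.05, edgeR gave 12 cytosolic genes lower, 0 mitochondrial genes lower and 1 mitochondrial gene higher (Aars2), and over all genes tested 19.7% were lower and 21.0% higher by that measure. DESeq2 called 12 cytosolic genes lower and Aars2 higher, against 16.3% of all genes lower and 19.4% higher. Limma-voom called 11 cytosolic genes lower and 0 mitochondrial genes, against 19.0% of all genes lower and 14.9% higher. In 15 of the 19 cytosolic genes (78.9%) every 2D library lay above every organoid library. That held for 30.2% of all genes tested, and the opposite separation for 23.4%. Among the mitochondrial genes, 2 (Yars2 and Cars2) had every 2D library above every organoid library, and 2 (Aars2 and Nars2) had the reverse. The mitochondrial genes were counted with fewer reads, down to 1 read for Vars2 in organoid 3 against a lowest count of 216 in a cytosolic gene. The standard errors of the fitted changes ran from 0.21 to 1.22 for mitochondrial and from 0.18 to 0.62 for cytosolic genes. In these bulk libraries, fewer cells of a type and less RNA per cell cannot be told apart.

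The scaling bears on these values, since a few genes took a larger share of the reads in organoids. As a plain share of all reads, the cytosolic synthetases took 0.488%, 0.455% and 0.482% in the 2D libraries and 0.111%, 0.158% and 0.228% in the organoid libraries. The mitochondrial synthetases took 0.0308%, 0.0309% and 0.032% in 2D culture and 0.0166%, 0.0195% and 0.021% in organoids. On this scale both sets were lower in every organoid library. With library totals in place of TMM scaling, the median change of all genes moved by -0.61 on the log2 scale, 27.0% of genes were called lower, and 17 synthetases were, 15 cytosolic and 2 mitochondrial (Iars2 and Yars2). Of the 4 mitochondrial genes with positive changes under TMM scaling, 3 (Nars2, Lars2 and Hars2) turned negative with library totals. The ratio of the cytosolic to the mitochondrial sum needs no scaling. It was 15.9, 14.7 and 15.1 in 2D culture and 6.66, 8.11 and 10.9 in organoids, with no overlap between the groups.

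Wars1, the cytosolic tryptophan enzyme, had the largest fitted change. Its level was 257, 255 and 253 CPM in 2D culture and 50.7, 92.5 and 95.3 CPM in organoids. The 2D libraries were nearly level and every organoid library was under 100 CPM. It fell by 1.68 ± 0.28 (SE) on the log2 scale, 3.20-fold (255 ± 2.19 against 79.5 ± 25.0 CPM, SD, n = 3 each; edgeR adjusted p = 0.00756). Wars1 was also the only synthetase called under all 14 other settings, with adjusted p from 8.53e-07 to 0.0431.

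Rars1 charges the arginine tRNAs and is a member of the multisynthetase complex, a particle that holds several cytosolic synthetases together. It stood at 165, 133 and 152 CPM in 2D culture and at 45.0, 22.3 and 86.2 CPM in organoids. Organoid 2 was lowest and organoid 3 highest, and the groups did not overlap. The change was -1.55 ± 0.47 with an edgeR adjusted p of 0.0493, close to the threshold, and RLE scaling, a median-ratio alternative to TMM, ended the call. Nars1, the asparagine enzyme, read 499, 441 and 472 CPM against 142, 148 and 262 CPM. It fell by 1.36 ± 0.29 (edgeR adjusted p = 0.0174), and organoid 3 again lay nearest to 2D culture.

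Sars1 and Hars1 changed by nearly the same amount but ordered the organoid libraries differently. Sars1, the serine enzyme, went from 356, 322 and 332 CPM to 104, 198 and 157 CPM (-1.14 ± 0.27, edgeR adjusted p = 0.0236). Hars1, the histidine enzyme, went from 169.6, 149.6 and 167 CPM to 96.1, 63.6 and 62.6 CPM (-1.13 ± 0.24, edgeR adjusted p = 0.0153). Organoid 1 was the lowest organoid library for Sars1 and the highest for Hars1. Tars1, the threonine enzyme, read 223, 209 and 224 CPM in 2D culture and 74.5, 107 and 143 CPM in organoids. Its change was -1.02 ± 0.27 (edgeR adjusted p = 0.0327), and no organoid library reached the 2D range.

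Farsa, the subunit of the phenylalanine enzyme that carries the catalytic site, read 108, 95.7 and 108 CPM against 46.6, 43.4 and 71.6 CPM (-0.95 ± 0.25, edgeR adjusted p = 0.0319). Aars1, the alanine enzyme, read 329.8, 301 and 352 CPM against 120.2, 176 and 226 CPM (-0.91 ± 0.27, edgeR adjusted p = 0.0467). Aars1 was no longer called under RLE scaling. The gene listed as Kars, the lysine enzyme, read 152, 145 and 143 CPM against 95.4, 83.0 and 92.7 CPM. Its change was the smallest of the 9 (-0.70 ± 0.18, edgeR adjusted p = 0.0265), and its organoid libraries were the closest together (90.3 ± 6.53 CPM, SD, n = 3).

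**Figure D2:**
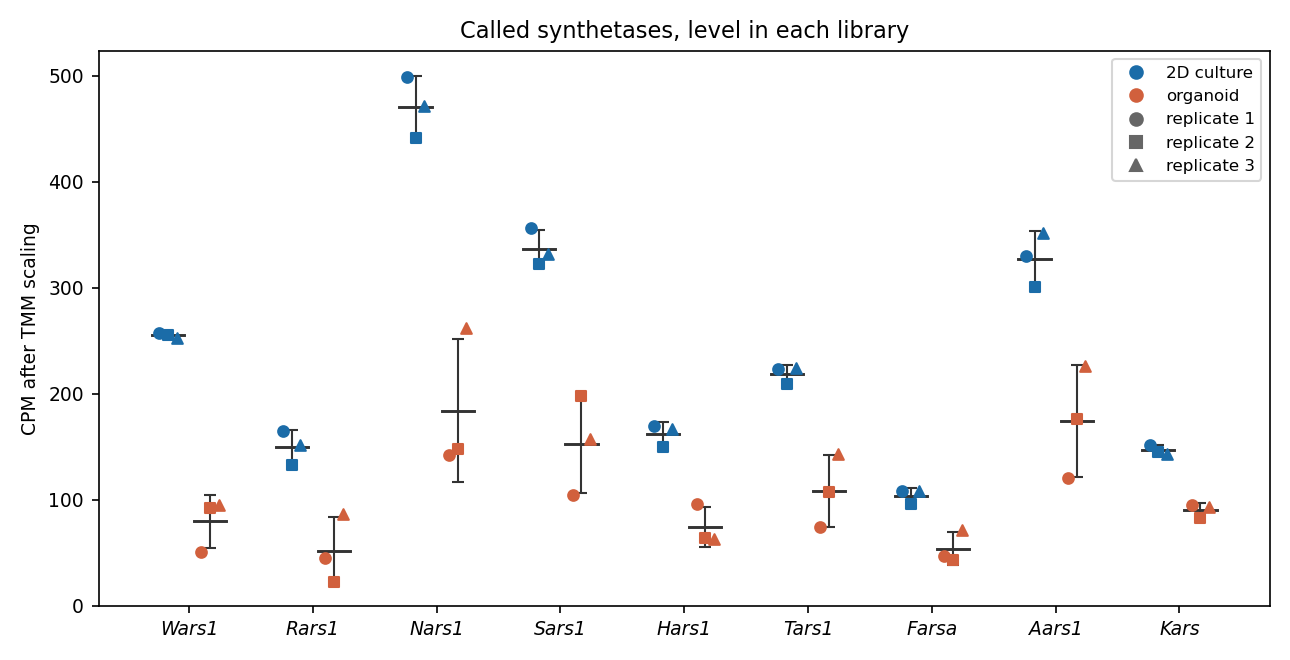
CPM after TMM scaling (vertical axis) of the 9 synthetases called lower, one symbol per library, with the mean and SD of each group of 3. In every gene the 3 organoid symbols lie below the 3 2D symbols, and organoid replicate 3 is the highest organoid library in 6 of the 9 genes.

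The other 10 cytosolic genes were not called. Farsb, the other subunit of the phenylalanine enzyme, had the widest spread, with 134, 131 and 133 CPM in 2D culture and 47.9, 13.0 and 94.9 CPM in organoids (-1.35 ± 0.62, edgeR adjusted p = 0.153). The enzyme works as a tetramer of both subunits. The ratio of Farsa to Farsb reads was 0.802, 0.731 and 0.811 in 2D culture and 0.973, 3.35 and 0.755 in organoids, so organoid 2 stood apart from the other 5 libraries. Yars1, the tyrosine enzyme, read 196, 171 and 193 CPM against 50.6, 62.2 and 149 CPM (-1.10 ± 0.42, edgeR adjusted p = 0.0957). For both genes the groups were separate, with organoid 3 nearest to 2D culture.

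Iars1, the isoleucine enzyme, read 194, 148 and 199 CPM against 75.4, 70.6 and 137 CPM, a change of -0.93 ± 0.31. Mars1, the methionine enzyme that also charges the initiator tRNA, read 215, 182 and 207 CPM against 108, 164 and 93.3 CPM, a change of -0.72 ± 0.26. Their edgeR adjusted p-values were 0.0663 and 0.0823. Glycine's enzyme, listed as Gars, read 400.2, 364 and 399 CPM against 247, 123 and 358 CPM, a change of -0.68 ± 0.38, and its highest organoid library lay just under the 2D range. The cysteine enzyme, listed as Cars, read 125, 117 and 140.2 CPM against 39.3, 98.8 and 113 CPM (-0.61 ± 0.39). These 4 genes also had no overlap between the groups.

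The groups overlapped for the remaining 4 cytosolic genes. Qars1, the glutamine enzyme, read 61.0, 71.4 and 69.6 CPM against 63.0, 52.9 and 32.1 CPM (-0.45 ± 0.28). Lars1, the leucine enzyme and a known leucine sensor for mTORC1, had 199, 171 and 189.7 CPM against 97.0, 112 and 204 CPM (-0.44 ± 0.31). Its organoid 3 value was above every 2D library. Vars1, the valine enzyme, read 58.2, 81.9 and 58.5 CPM against 46.1, 67.4 and 77.4 CPM. Its fitted change of -0.06 ± 0.27 was the smallest of the cytosolic set (edgeR adjusted p = 0.898), and the organoid libraries lay within or below the 2D range.

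By catalytic fold, 2 of 9 class I genes and 7 of 10 class II genes among the cytosolic synthetases were called lower, with medians of -0.72 and -0.98. The 7 genes of the multisynthetase complex held 2 calls (Rars1 and Kars; median -0.70), and the 12 outside it held 7 (median -1.06). Of 11 cytosolic synthetases listed as ATF4 targets 5 were called lower (median -0.93), and of the other 8 genes 4 were (median -0.82). These differences between subsets were not tested, and 12.6% of all genes tested were called lower.

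Among mitochondrial synthetases, Aars2 and Nars2 stood higher in every organoid library after TMM scaling. With library totals the change of Aars2 was 0.05 and that of Nars2 was -0.03. Aars2, the alanine enzyme of mitochondria, read 12.6, 11.1 and 14.5 CPM in 2D culture and 20.5, 19.4 and 20.6 CPM in organoids. Its change was 0.67 ± 0.27, with an edgeR adjusted p of 0.106, so it was not called. Nars2, for asparagine, read 14.0, 13.5 and 13.0 CPM against 19.3, 24.4 and 17.0 CPM (0.58 ± 0.27, edgeR adjusted p = 0.160). For alanine and asparagine, then, the cytosolic gene was called lower and the mitochondrial gene had a positive change that did not pass the test. Hars2, for histidine, had 19.2, 18.1 and 17.8 CPM against 24.0, 14.6 and 29.7 CPM (0.31 ± 0.32), and its organoid libraries lay on either side of 2D culture. Lars2, for leucine, read 13.1 to 17.6 CPM against 16.6 to 23.0 CPM, a change of 0.40 ± 0.28.

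Yars2, for tyrosine, had the lowest fitted change of the mitochondrial set. It read 11.5, 13.4 and 11.9 CPM in 2D culture and 5.89, 1.26 and 7.09 CPM in organoids, where the middle value rests on 21 reads (-1.36 ± 0.64, edgeR adjusted p = 0.159). Iars2, for isoleucine, read 42.5, 40.7 and 47.9 CPM against 44.3, 29.0 and 23.8 CPM, and its organoid libraries reached from inside the 2D range to well below it (-0.43 ± 0.28). Vars2, for valine, read 6.74, 5.47 and 6.19 CPM against 7.18, 5.70 and 0.0473 CPM. Its organoid 3 value is 1 read, below the 3-read limit of that library (0.142 CPM), and its change of -0.51 carries an SE of 1.22.

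The other mitochondrial genes had changes within 0.48 of 0 on the log2 scale, none called. Sars2 for serine (-0.44 ± 0.52) and Wars2 for tryptophan (-0.43 ± 0.47) had organoid libraries on both sides of the 2D range. Tars2 for threonine (-0.12 ± 0.21) and Fars2 for phenylalanine (-0.01 ± 0.25) had the narrowest errors of this group, and Tars2 spanned 28.0 to 35.6 CPM over all 6 libraries. Cars2 for cysteine (-0.48 ± 0.33), Ears2 for glutamate (-0.11 ± 0.59) and Rars2 for arginine (-0.06 ± 0.46) had counts that are not whole. This happens where reads are divided among similar genes, so these 3 values are uncertain. The files' other 31 synthetases had whole counts in all 6 libraries.

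For 14 amino acids there is both a cytosolic and a mitochondrial gene here, which gives 15 ratios because the cytosolic phenylalanine enzyme has separate genes for its subunits. A ratio of reads within a library does not depend on scaling. In 8 of the 15 the cytosolic-to-mitochondrial ratio was lower in every organoid library than in any 2D library, and in 0 was it higher. Among single genes tested, 30.2% had every 2D library above every organoid library and 23.4% had the reverse. The share over ratios of other genes was not computed, so whether 8 of 15 is unusual is not known. The exact two-sided permutation p was 0.1 for each of the 8, the smallest that 3 against 3 libraries can give, and 0.188 after Benjamini-Hochberg adjustment over the 15. The median log2 difference was -0.95, and 12 of 15 were negative.

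Asparagine had the largest shift. Nars1 over Nars2 was 35.7, 32.6 and 36.4 in 2D culture and 7.36, 6.08 and 15.4 in organoids, 3.95-fold lower. Alanine followed the same course, with Aars1 over Aars2 at 26.3, 27.1 and 24.3 against 5.87, 9.10 and 10.9 (3.09-fold lower). Both pairs were well separated, since the highest organoid ratio stayed under the lowest 2D ratio. Hars1 over Hars2 went from 8.83, 8.29 and 9.35 to 4.0, 4.34 and 2.10 (2.66-fold lower). Wars1 over Wars2 went from 16.9, 16.7 and 17.2 to 7.36, 12.7 and 4.93 (2.19-fold lower). Tars1 over Tars2 was 1.93-fold lower, Farsa over Fars2 1.96-fold, Farsb over Fars2 3.39-fold and Rars1 over Rars2 2.93-fold. The last of these uses a gene with shared reads.

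The other 7 ratios, those of leucine, serine, isoleucine, cysteine, tyrosine and valine among them, overlapped between the groups. Vars1 over Vars2 reached 1636 in organoid 3 because its denominator was 1 read. The cysteine ratio, Cars over Cars2, was 9.59, 9.15 and 10.8 in 2D culture and 5.54, 10 and 10.4 in organoids, where organoid 1 alone lay below the 2D range, and it too uses a gene with shared reads.

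**Figure D3:**
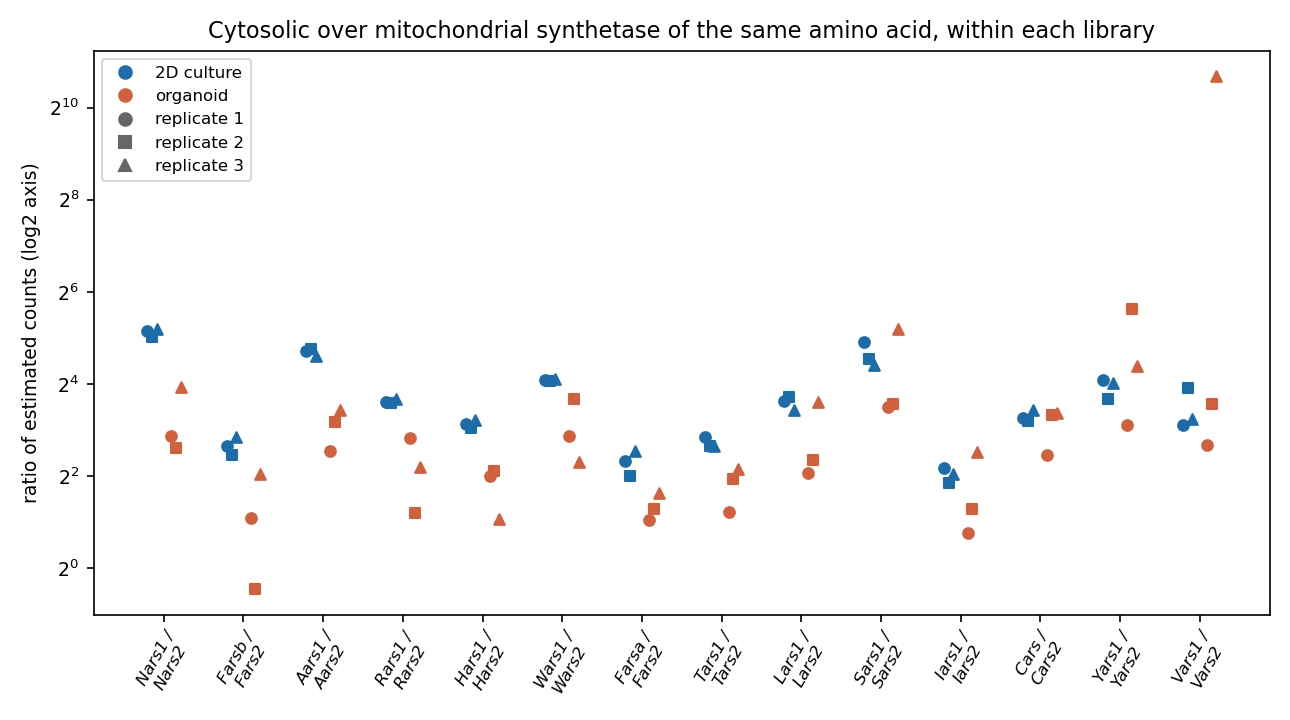
Ratio of the cytosolic to the mitochondrial synthetase's reads within each library (vertical axis, log2 scale), one column per pair, with blue for 2D culture and orange for organoids. In the first 8 pairs all 3 organoid symbols lie below all 3 2D symbols, and the lone high point at the right is valine in organoid 3, where the mitochondrial gene had 1 read.

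The organoid libraries were not equal. Against the mean of the 2D libraries, on the log2(CPM + 0.1) scale, the cytosolic synthetases had a median difference of -1.25, -1.03 and -0.54 in organoids 1 to 3. The mitochondrial medians were 0.02, -0.25 and -0.05, and those of all genes tested -0.09, -0.13 and -0.19. Organoid 3 was the highest organoid library for 14 of the 19 cytosolic genes, and the lowest was organoid 1 for 9 and organoid 2 for 7. The SD of log2 values within a group had a median of 0.101 in 2D culture and 0.503 in organoids for cytosolic genes. The medians were 0.142 and 0.458 for mitochondrial genes and 0.137 and 0.685 for all genes tested.

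**Figure D4:**
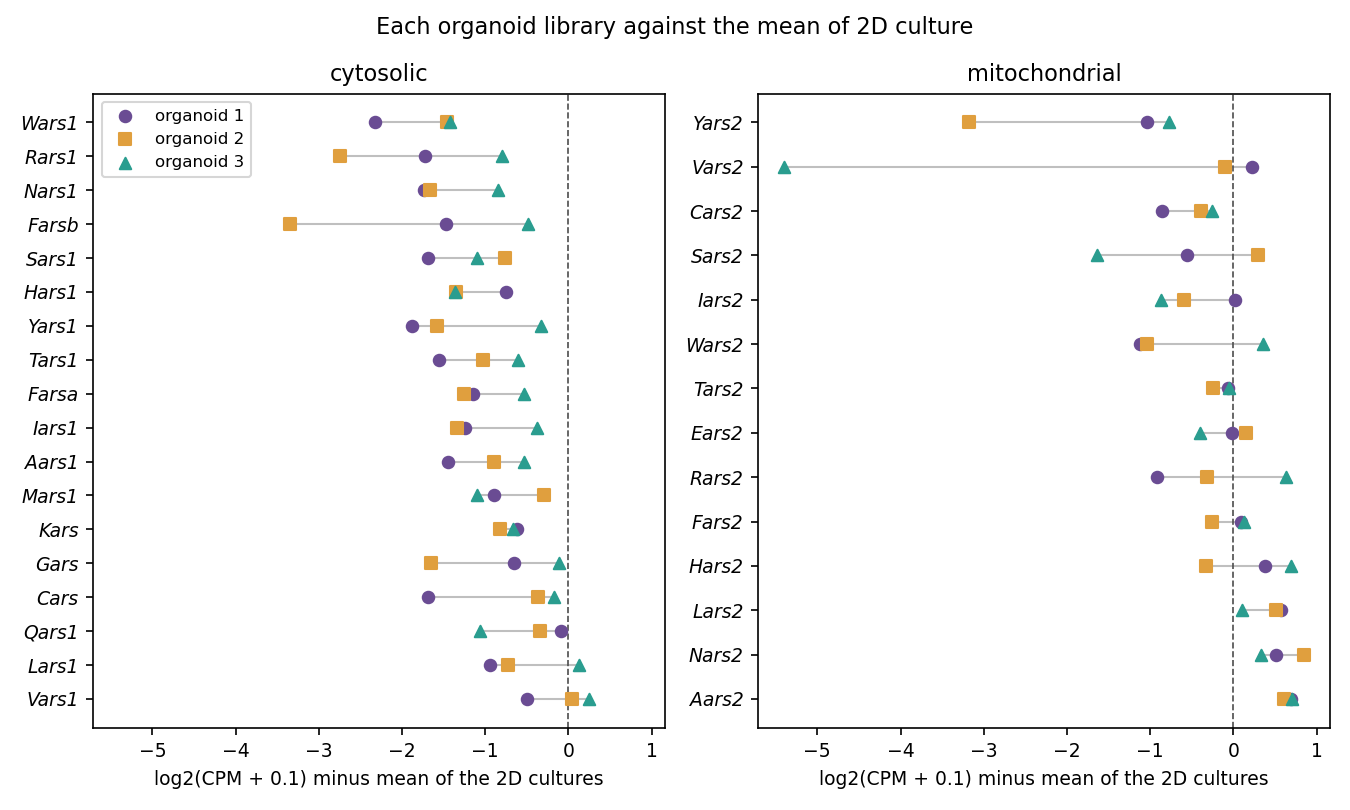
Difference of each organoid library from the mean of the 2D libraries for synthetase genes (horizontal axis, log2(CPM + 0.1)), cytosolic on the left and mitochondrial on the right. Organoid 3 (triangles) is nearest to or above 0 for most cytosolic genes, with a median of -0.54 against -1.25 and -1.03 for organoids 1 and 2.

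Markers of dividing cells were lower in organoids too. The 7 proliferation genes, which include Mki67, Pcna and Mcm5, summed to 811 to 847 CPM in 2D culture and to 111, 153 and 340.4 CPM in organoids 1, 2 and 3. Not every gene followed the order of the sum: Mcm3 read 7.65, 6.48 and 0.189 CPM and Mcm5 8.42, 0.54 and 18.3 CPM in organoids 1, 2 and 3. Of the 7, 5 were called lower (71.4%, against 12.6% of all genes), and their part in the synthetase result was not tested.

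Promoter sequence was compared next. RefSeq promoter windows (build GRCr8, 250 bases before to 50 after the start) were found for 30 of the 34 genes. Gars and Rars1 were among those without one. The composite element read by ATF4 together with C/EBP proteins was searched as TGATGNAA on both strands (TTNCATCA on the other). It was present in 3.98% of the 33469 windows, in 7 of 16 cytosolic synthetase windows and in 0 of 14 mitochondrial ones. One 30-base site per gene is printed 5′ to 3′ on the gene's strand, with the element in capitals, so that its form in these genes can be compared.
Aars1, chr19:55908480-55908509, + strand: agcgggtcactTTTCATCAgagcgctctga
Cars, chr1:208225334-208225363, - strand: cggcgccgcggTTGCATCAgattctggaaa
Iars1, chr17:15193658-15193687, - strand: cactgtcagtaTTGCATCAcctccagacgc
Mars1, chr7:65023752-65023781, - strand: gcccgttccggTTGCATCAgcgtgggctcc
Nars1, chr18:60275778-60275807, - strand: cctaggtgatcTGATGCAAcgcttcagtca
Tars1, chr2:62114811-62114840, - strand: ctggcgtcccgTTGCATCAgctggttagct
Yars1, chr5:146820183-146820212, + strand: cggagctacgagctcagcTGATGCAAcctg

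The printed sites lay from 27 bases before to 38 bases after the start. All of them but that of Aars1 read TTGCATCA or its complement. Aars1 has a second site, not printed, at position -112 from the start, and that site reads TTGCATCA. Of 8 called cytosolic genes with a window, 3 had the element (Aars1, Nars1 and Tars1). Of 8 that were not called, 4 had it (Cars, Iars1, Mars1 and Yars1). Whether the element goes with the changes was not tested. A match describes the letters and does not show binding.

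The ETS-type motif CCGGAAGT (ACTTCCGG on the other strand) was in 3.81% of all windows, in 7 of 16 cytosolic windows (Cars, Farsa, Hars1, Lars1, Mars1, Nars1 and Wars1) and in 2 of 14 mitochondrial ones (Hars2 and Rars2). The E-box CACGTG was in 6.42% of all windows, in 5 cytosolic ones and 1 mitochondrial one. The NRF1 core GCGCATGC (GCATGCGC) was in 2.47% of all windows, in 0 cytosolic ones and in 2 mitochondrial ones (Vars2 and Wars2). The CCAAT box (searched as those letters and, on the other strand, as ATTGG) was in 37.5% of all windows, in 10 cytosolic and 5 mitochondrial ones, and TGACGTCA in 1.83% of all windows and in 0 of these 30.

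Hars1 and Hars2 are neighbours that start 144 bases apart and run in opposite directions, so they share one stretch of promoter. It is printed on the + strand because the genes on its ends gave different values. The 2 ETS-type motifs are in capitals.
Hars1-Hars2, chr18:28672713-28672855, + strand: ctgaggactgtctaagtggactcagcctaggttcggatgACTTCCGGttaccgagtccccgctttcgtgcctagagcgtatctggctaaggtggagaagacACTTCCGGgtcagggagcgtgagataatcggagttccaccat
Hars1 fell while Hars2 read 18.4 ± 0.743 CPM in 2D culture and 22.8 ± 7.62 CPM in organoids (SD, n = 3 each; edgeR adjusted p = 0.502).

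Genes that work beside the synthetases were taken from lists. The scaffold proteins Aimp1, Aimp2 and Eef1e1 hold the multisynthetase complex together, and 2 of the 3 fell. The shares of all genes called, given beside the main counts, were 12.6% lower and 14.9% higher. Aimp1 went from 46.3 ± 0.245 to 18.6 ± 5.11 CPM (-1.32 ± 0.27, edgeR adjusted p = 0.0149), and Aimp2 from 68.8 ± 3.19 to 25.9 ± 6.73 CPM (-1.41 ± 0.25, edgeR adjusted p = 0.00902). Eef1e1 had a change of -0.92 ± 0.45 (edgeR adjusted p = 0.17). All 3 had every 2D library above every organoid library, as did 30.2% of all genes tested. Synthetases outside the name rule were not called: Eprs, the fused glutamate and proline enzyme of the complex, read 569 ± 23.5 and 406 ± 126 CPM (-0.49 ± 0.28, edgeR adjusted p = 0.239). Pars2 for mitochondrial proline had -0.62 ± 0.45, and Tars3, a second threonine enzyme, had 1.0 ± 1.21 at 1.67 and 3.34 CPM.

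Of 5 genes listed as clearing mischarged tRNAs or resembling synthetases, edgeR called 0, and 0 had an unadjusted p under 0.05 by edgeR. DESeq2 and limma-voom also called 0. With library totals 3 were called lower (Aarsd1, Dtd1 and Dtd2), against 27.0% of all genes. Under TMM scaling the changes of the 5 genes were -0.80 for Dtd1, -0.62 for Aarsd1, -0.56 for Dtd2, -0.47 for Ptrhd1 and 0.66 for Prorsd1. Mitochondria make glutaminyl-tRNA by converting a mischarged glutamate with the GatCAB complex, whose genes are Qrsl1, Gatb and Gatc. EdgeR called 0 of the 3, and 1 had an unadjusted p under 0.05 (Qrsl1, -1.14 ± 0.38, adjusted p = 0.064 by edgeR), while DESeq2 and limma-voom each called 1. Gatc and Gatb had changes of -0.44 ± 0.30 and 0.16 ± 0.41, from counts that were not whole in 6 libraries.

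Of 11 mitochondrial translation factors 3 were called lower (27.3%, against 12.6% of all genes) and 1 higher. Tsfm, an exchange factor, and Tufm, the elongation factor that it serves and that carries charged tRNA, had changes of -1.66 ± 0.47 and -0.82 ± 0.19 (edgeR adjusted p = 0.0393 and 0.0219). Gfm1, the translocase, changed by -1.38 ± 0.29, and Gfm2, which recycles ribosomes, by 1.01 ± 0.30, with edgeR adjusted p-values of 0.0156 and 0.0455. Gfm2 was no longer called with library totals (0.35). Counts of Gfm2 were not whole in 6 libraries and those of Tsfm in 4, so these values are uncertain. Of 75 mitochondrial ribosomal proteins 14 were called lower (18.7%) and 0 higher (median -0.54). Of 87 cytosolic ribosomal proteins 11 were lower (12.6%, the share over all genes) and 0 higher (median -0.34). The difference between these sets and the mitochondrial synthetases was not tested.

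Cytosolic elongation factors gave 2 lower and 1 higher of 9 tested, or 33.3% called against 27.5% of all genes. Eef1d, an exchange factor for the factor that carries charged tRNA, changed by -0.88 ± 0.18 and Eif5a, which helps ribosomes past difficult stretches, by -0.88 ± 0.27, while Gtpbp2, which helps free stalled ribosomes, changed by 1.53 ± 0.35. Gtpbp2 was no longer called with library totals and Eif5a no longer under RLE scaling, and counts of Eif5a were not whole in 6 libraries. Of 15 genes of tRNA export, end processing and ligation 3 were lower (20.0%, against 12.6% of all genes) and 0 higher. They included Rpp30, a subunit of RNase P (-1.16 ± 0.31), and Rtcb, the tRNA ligase (-1.03 ± 0.30).

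The ATF4 and amino acid response list did not move one way. Of its 22 genes 6 were called higher and 5 lower, with a median of 0.24. Both shares lay above those over all genes tested, which were 14.9% higher and 12.6% lower. That difference was not tested. Stc2, a secreted glycoprotein, went from 1.75 ± 0.392 to 47.9 ± 23.0 CPM (4.77 ± 0.47, edgeR adjusted p = 0.00118). Ddit4, an inhibitor of mTORC1, changed by 4.13 ± 0.25 and Nupr1, a stress-induced chromatin protein, by 3.76 ± 0.79. Nupr1 read 138, 1021 and 222 CPM in organoids 1, 2 and 3, and its change was 2.45 without organoid 2. Psph, the last enzyme of serine synthesis, went from 45.2 ± 1.69 to 10 ± 1.41 CPM (-2.17 ± 0.23, edgeR adjusted p = 0.00148). Atf4 itself and Asns, the asparagine synthetase that is a standard ATF4 target, are named after their values were seen. Atf4 read 279.8 ± 6.67 and 338 ± 132 CPM (0.27 ± 0.32, edgeR adjusted p = 0.568; -0.29 with library totals), and Asns 278 ± 4.85 and 157 ± 92.1 CPM (-0.82 ± 0.40, edgeR adjusted p = 0.173).

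Amino acid transporters gave 5 lower (25.0%, against 12.6% of all genes) and 0 higher of 20. Slc6a6, the taurine carrier, went from 218 ± 16 to 31.8 ± 6.46 CPM (-2.78 ± 0.23, edgeR adjusted p = 0.000723). Slc1a4, a carrier of small neutral amino acids, changed by -1.87 ± 0.30. Slc3a2, the heavy chain of the large neutral amino acid exchanger, went from 649 ± 11.1 to 188 ± 29.2 CPM (-1.79 ± 0.22, edgeR adjusted p = 0.00231). Its light chain Slc7a5, named after its values were seen, had a change of -1.12 ± 0.39 (edgeR adjusted p = 0.0735).

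A list of 8 genes held eIF2alpha, its kinases, its phosphatase subunits and Eif2a. Of the 8, 1 was higher and 1 lower (25.0% called, against 27.5% of all genes). Eif2ak4, the kinase that senses uncharged tRNA, changed by 1.39 ± 0.41 (12.4 ± 4.07 to 32.5 ± 13.9 CPM, edgeR adjusted p = 0.0443), and was no longer called with library totals (0.80). Ppp1r15a, the inducible phosphatase subunit, changed by -1.03 ± 0.23. The MYC family, in which Myc is a known activator of genes of translation, gave 4 higher and 0 lower of 7. That is 57.1% called higher, against 14.9% of all genes. Of the 4, 3 were Mxi1 (3.60 ± 0.33), Mxd1 (3.11 ± 0.30) and Mxd4 (1.58 ± 0.21), which act as antagonists of Myc, and the other was Mycn (2.39 ± 0.56, from 1.22 to 6.40 CPM). Mycn was no longer called with library totals. Myc itself and Mycl, named after their values were seen, also had every organoid library above every 2D library. That separation held for 23.4% of all genes tested. Myc went from 81.2 ± 4.58 to 132 ± 31.0 CPM. The changes of Myc and Mycl were 0.70 ± 0.22 and 2.26 ± 0.69 (edgeR adjusted p = 0.0577 and 0.0506), so neither was called. All 7 changes of the family were positive, and its part in the synthetase result was not tested.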

How the data were processed

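Trizol RNA of cells in 2D culture (3 libraries) and of organoids (3 libraries) was sequenced as mRNA libraries for the DNBSEQ platform, per the labels' protocols. The authors deposited expected counts for each gene and library, which are estimates and can hold fractions, without normalisation. RSEM, DESeq2, HISAT, Bowtie2 and HISAT2 are named in the submitters' processing notes, and the sources used here give no build, annotation or strandedness. Counts were rounded and tested with edgeR 4.0.16 in R 4.3.3 (filterByExpr with a minimum count of 10, TMM scaling, robust quasi-likelihood F-test, Benjamini-Hochberg adjustment over 13052 genes, threshold 0.05). Each SE was the size of the log2 change divided by the root of its F statistic. The test was checked on simulated counts. Library totals, RLE and upper-quartile scaling, no filter, DESeq2 1.42.0, limma 3.58.1 (voom, also with a weight per group), a replicate block and leaving out each library were the alternatives. Total counts ran from 18592574 to 26472447. The 3-read limit covers counting error only, while each SE, drawn from the test, also includes the spread between libraries. Replicates of a group differed by more than counting noise (chi-square over its degrees of freedom, 9.1 to 410).

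The members, gene lists, motifs and alternatives were chosen with earlier results of these data known. Each synthetase is named except 2 that enter the counts and medians but are not reported here singly, as is 1 gene of the tRNA processing list. Values per library are given for those called, the 3 largest changes not called, pairs of opposite direction with a call, and genes whose call changes with scaling; of each list up to 3 called genes and the largest opposite one, or all of a list of up to 5. The further rule of the 3 highest per coding kb was not applied, as transcript lengths were not used here, and levels are not compared between genes. The files' symbols Cars, Gars and Kars are Cars1, Gars1 and Kars1 in RefSeq, which supplied the GRCr8 promoter windows.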

Additional observations from a re-analysis of the deposited data

How the results depend on the processing

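The mitochondrial genes summed to fewer reads than the cytosolic ones, and 3 libraries a group limit the precision of both. The number of synthetases called lower, 9, was 9 with upper-quartile scaling and with no filter, 7 with RLE scaling, 12 with DESeq2, 11 with limma-voom, 11 with limma-voom weighted by group, and ranged from 1 to 14 when 1 library was left out. With library totals it was 17, the medians were -1.52 (cytosolic) and -0.74 (mitochondrial), and 1063 genes were called higher and 3529 lower. Limma-voom called 2478 genes lower. When 1 library was left out, genes called higher ranged from 703 to 2747 and lower from 399 to 2574. The mitochondrial median then ranged from -0.30 to -0.04 and the cytosolic from -1.15 to -0.77. DESeq2 called 1 synthetase higher (Aars2), and leaving out 1 library gave 0 to 2 (Aars2 and Hars2 without organoid 2). The causes were not tested beyond what each setting changes. The same-numbered libraries' deviations correlated at 0.0606, 0.187 and 0.0207, so the numbers were not taken as pairs. The fit with a replicate block called 7 synthetases lower and 0 higher, all 7 among the 9. All 19 cytosolic changes were negative in each setting except without 2D library 2, organoid 1 or organoid 2 (18), and the cytosolic minus the mitochondrial median ran from -1.06 to -0.62 (-0.81 as reported).

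Directions turned for values near 0 and for some larger ones. In the main fit Tars3 was 1.0, Prorsd1 0.66, Nars2 0.58, Vars2 -0.51 and Lars2 0.40. With library totals Nars2 was -0.03, Lars2 -0.22, Hars2 -0.31, Gatb -0.47 and Atf4 -0.29. Fars2 was 0.02 with RLE scaling and 0.01 with DESeq2. Tars3 was -0.20 with limma-voom, -0.23 with group weights and -0.04 with the replicate block, and Prorsd1 was -0.12, -0.13 and -0.05. Gatb was -0.0048 with a weight per group. When 1 library was left out, Rars2 ranged from -0.61 to 0.26, Fars2 from -0.11 to 0.15, Vars1 from -0.23 to 0.15, Ears2 from -0.33 to 0.03, Vars2 from -1.10 to 0.06, Prorsd1 from -0.87 to 1.11, Gatb from -0.11 to 0.45 and Tars3 from -0.62 to 1.62. Over the synthetases named and 14 settings, 375 values kept direction and call, 26 gained a call, 32 lost one and 15 changed direction.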
